A study of Mus musculus with 3 samples.

Results

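Glycolysis turns glucose into pyruvate, and pyruvate is then either reduced to lactate or taken into the mitochondrion and oxidised. Endothelial cells are known for drawing much of their energy from glycolysis, and the renal medulla is known for its low oxygen, under which hypoxia-inducible factors raise many glycolytic genes. The genes examined were a fixed list of 42 symbols, which holds the enzymes of glycolysis, the lactate dehydrogenases, the enzymes that admit pyruvate to oxidation with their kinases and a phosphatase, the gluconeogenic enzymes that run the route backwards, and the monocarboxylate transporters that carry lactate and pyruvate across membranes. They were found by symbol in the array annotation, and a gene with several probe sets was read from the one with the highest mean. Of the 42 genes, 38 had a probe set (the group of array probes that reads 1 transcript) naming that gene alone, out of 19938 genes measured in this way.

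The cells were GFP positive cells sorted from the dissected kidney medulla of adult male FVB/N mice carrying Tg(TIE2GFP)287Sato, in which the promoter of the endothelial receptor gene Tie2 (Tek) drives green fluorescent protein. This promoter is also known to be active in some blood cells. There was 1 group, medullary endothelial cells, with 3 Affymetrix Mouse Gene 1.0 ST arrays, each from a pool of 2 kidneys. The data therefore hold no treated or mutant group and no other compartment to compare with. The age was not given more closely than adult. All 7 endothelial markers measured, among them Pecam1, Cdh5 and Tek, lay over the background limit defined below on every array, against 2 of 8 markers of the proximal tubule, 3 of 5 of the thick ascending limb, 4 of 5 of the collecting duct, 1 of 3 of red cells, 1 of 7 of leukocytes and 0 of 5 of pericytes and smooth muscle.

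Many glycolytic genes are known targets of hypoxia-inducible factors, which recognise a short core in DNA written ACGTG or GCGTG. Promoters of 4 of the genes are shown, because they pair genes from different steps of the route and from both sides of the background limit: Ldha makes lactate, Pfkfb3 makes the activator of phosphofructokinase, Pgk1 makes the first ATP of the route, and Slc16a1 carries lactate across the cell membrane. Each is the RefSeq sequence of GRCm38.p6 for the window of 250 bases before to 50 after the annotated start, on the strand of the gene, and capitals mark the core on either strand.
Ldha, chr7:46845554-46845853, plus strand: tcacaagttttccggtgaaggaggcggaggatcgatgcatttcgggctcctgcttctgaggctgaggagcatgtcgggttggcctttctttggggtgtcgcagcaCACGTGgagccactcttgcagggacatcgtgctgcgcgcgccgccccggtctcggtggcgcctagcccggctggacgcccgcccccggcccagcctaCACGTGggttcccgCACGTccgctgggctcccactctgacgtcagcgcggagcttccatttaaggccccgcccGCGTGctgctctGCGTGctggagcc
Pfkfb3, chr2:11502041-11502340, minus strand: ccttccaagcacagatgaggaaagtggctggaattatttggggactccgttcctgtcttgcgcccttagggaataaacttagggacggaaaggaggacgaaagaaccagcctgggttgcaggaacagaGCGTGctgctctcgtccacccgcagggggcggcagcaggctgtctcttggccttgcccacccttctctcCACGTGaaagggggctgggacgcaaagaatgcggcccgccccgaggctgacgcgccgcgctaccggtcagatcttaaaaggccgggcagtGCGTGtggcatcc
Pgk1, chrX:106186850-106187149, plus strand: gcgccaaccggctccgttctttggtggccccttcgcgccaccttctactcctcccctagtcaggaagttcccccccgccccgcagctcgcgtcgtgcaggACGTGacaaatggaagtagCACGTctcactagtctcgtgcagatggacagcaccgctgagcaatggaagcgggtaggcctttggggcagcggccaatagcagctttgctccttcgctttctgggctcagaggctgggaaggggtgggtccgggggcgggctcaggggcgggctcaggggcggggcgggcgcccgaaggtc
Slc16a1, chr3:104638414-104638713, plus strand: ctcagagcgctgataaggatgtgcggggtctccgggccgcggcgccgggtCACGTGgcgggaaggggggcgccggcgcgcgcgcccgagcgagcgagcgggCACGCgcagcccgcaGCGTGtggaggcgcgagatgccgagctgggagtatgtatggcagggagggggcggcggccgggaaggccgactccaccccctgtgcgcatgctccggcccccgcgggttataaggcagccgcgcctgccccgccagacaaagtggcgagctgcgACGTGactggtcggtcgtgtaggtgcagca
The Ldha window held 7 cores, the Pfkfb3 window 4, the Pgk1 window 2 and the Slc16a1 window 5. The word CACGTG reads as the core on both strands and counts as 2 of them. It stood in the windows of Ldha, Pfkfb3 and Slc16a1. Ldha and Pfkfb3 each have a further promoter in the reference, with 2 cores and 1 core, so the window with more cores is shown for both. None of the 4 windows shown stands for the promoters of the list without a core.

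Over the list, 40 of the 42 genes had 60 promoters in the reference, and Pdp1 and Slc16a7 had none. A core lay in 40 of these 60 promoters (66.7%), against 43.8% of all 32851 promoters of the same length. Counted by gene, 30 of 40 (75%) had a core in at least 1 promoter, against 46.7% of 27025 genes. A gene with more promoters has more chances to hold a core, and the list had 60 for 40 genes, against 32851 for 27025. The 27025 also include genes not measured here, and shares by level are given further below. The longer word CACGTG lay in 7 of the 60 promoters (11.7%), against 7.15% of all promoters. A match of so short a word is a description of the sequence and not a binding site.

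Levels were the deposited log2 values, and 2 limits served as a reading of on and off. The lower limit was 100 units (6.64 on the log2 scale), after the filter on low levels used in the study. The higher was the background limit of 246 units (7.94), the 95th percentile of the levels of 1240 probe sets of smell and taste receptors, which kidney endothelium is not known to express. A gene was called above or below a limit by limma with Benjamini-Hochberg adjustment over all 19938 genes, two-sided at 0.05, and otherwise was not told apart from it. Probes differ in how strongly they bind, so the listed genes were not ranked against each other by level. The background limit and the median levels of lists do set probe sets of different genes side by side. Differences in binding therefore limit them too. Because the samples are pools of sorted cells, fewer cells of a type and less RNA per cell cannot be told apart. The p-values rest on the spread of a gene between the 3 pools, combined with a prior variance estimated over many genes. No other source of variation enters them.

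Most glycolysis genes were above the lower limit, and fewer above the higher. Of the 38 measured, 36 (94.7%) were above 100 units, against 83.0% of all genes, and Fbp1 alone was below it, against 12.0% of all genes. On every array 37 reached 100 units (97.4%), against 85.4% of all genes. Above the background limit were 23 (60.5%), against 49.8% of all genes, while 7 (18.4%) were below it, against 37.8% of all genes, and 8 were not told apart. On every array 25 reached the background limit (65.8%), against 55.0% of all genes. The median level was 8.57 over the list and 8.15 over all genes. Leaving out each array in turn gave 22 to 24 genes above the background limit and 7 below it.

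**Figure D1:**
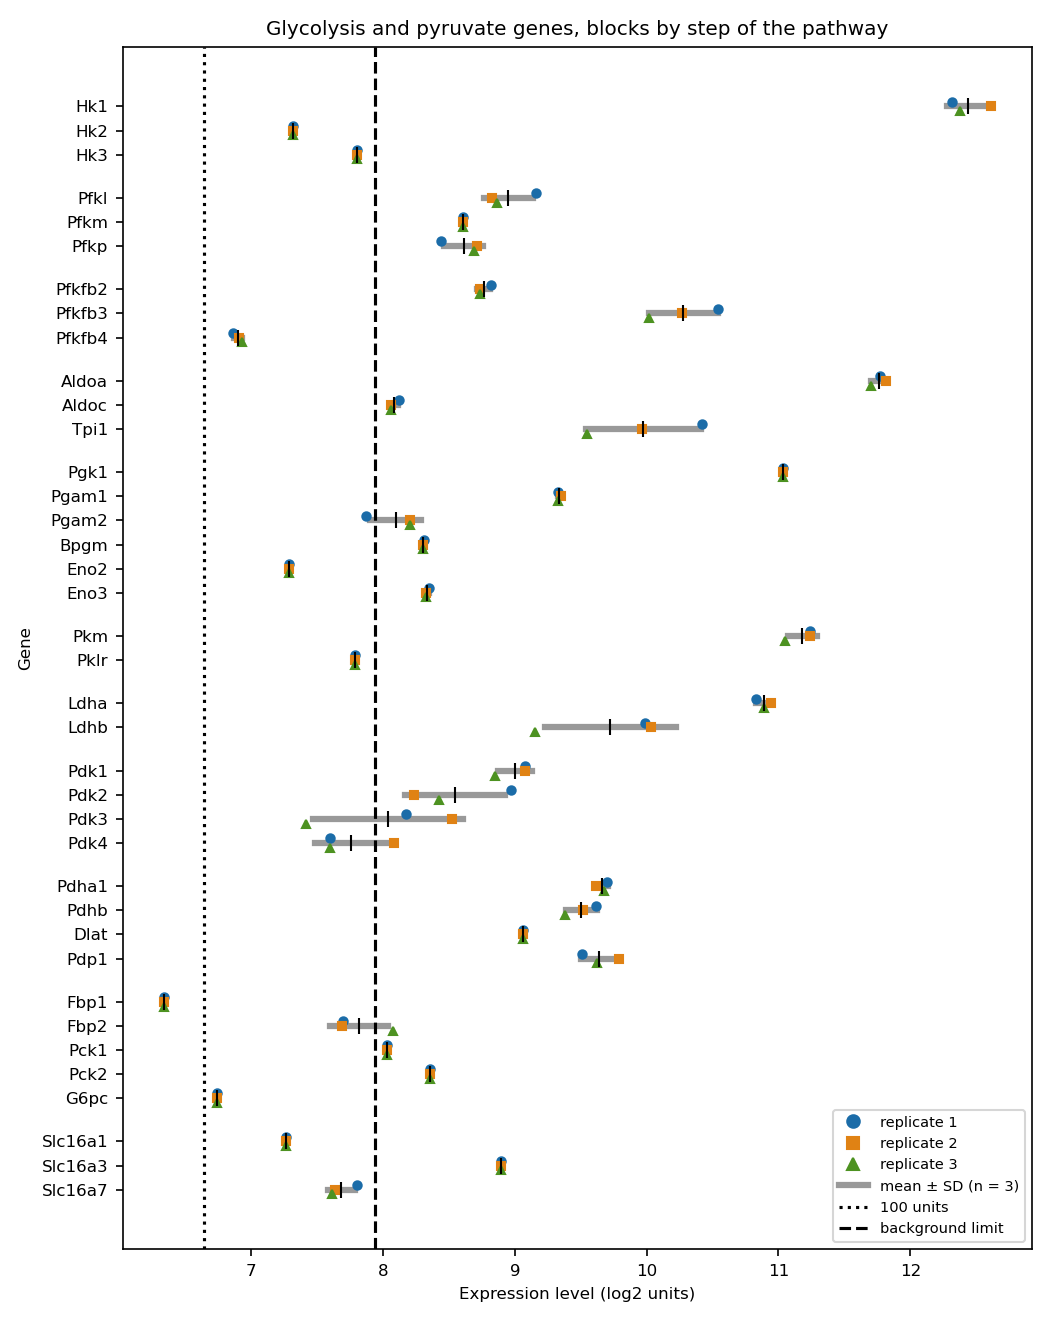
Expression level on the log2 scale (horizontal axis) of the 38 measured genes, in blocks by step of the pathway from the hexokinases at the top to the monocarboxylate transporters at the bottom, with a point for each array and a grey bar for the mean ± SD (n = 3). The dotted line is 100 units (6.64) and the dashed line the background limit (7.94), each block has at least 1 gene right of the dashed line, and Fbp1 alone lies left of the dotted line.

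Hexokinases trap glucose in the cell as glucose 6-phosphate. Hk1, the widely expressed form, had levels on the probe set with the highest mean of 12.32, 12.61 and 12.37 (mean 12.43 ± 0.15, SD, n = 3), which was 4.49 log2 units over the background limit (limma adjusted p = 2.81e-05). Its other probe set stood at 9.70 on all arrays, also over the limit. The only accession of the higher probe set is also listed for 16 probe sets that name the ribosomal protein gene Rpl17 beside Hk1. It is listed for the probe set at 9.70 too, so this accession does not tell the 2 Hk1 probe sets apart. The level of 12.43 may not be that of Hk1. Hk2, the form known to be induced by hypoxia and insulin, stood at 7.32 on all 3 arrays and was below the background limit (difference -0.62, adjusted p = 0.000869), though above 100 units. Hk3, known from blood cells, stood at 7.80 on all arrays and was not told apart from the background limit (adjusted p = 0.0906). The next enzyme, glucose 6-phosphate isomerase (Gpi1), was not analysed here.

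An identical value on all arrays does not stand for an error of 0. Median polish, the step by which RMA summarises the probes of a set, is known to set small differences between few arrays to exactly 0, and its part in these values was not tested. Of the 38 genes, 13 (34.2%) had 1 value on all arrays, against 46.3% of all genes, 8 (21.1%) had 2 different values, against 29.7%, and 17 (44.7%) had 3, against 24.0%. The prior variance of the fit was therefore taken from the genes with 3 different values. For genes with 1 value, their spread of 0 still entered the fit beside this prior. Their p-values may therefore be too small.

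Phosphofructokinase 1 is the committing step of glycolysis and has a liver, a muscle and a platelet form. All 3 forms were above the background limit. Pfkl, the liver form, had levels of 9.16, 8.82 and 8.87 (mean 8.95 ± 0.18, SD, n = 3), with replicate 1 the highest and an adjusted p of 0.000902 by limma. Pfkm, the muscle form, stood at 8.60 on all arrays (adjusted p = 0.000722). Pfkp, the platelet form, had 8.44, 8.71 and 8.69 (mean 8.61 ± 0.15, SD, n = 3; adjusted p = 0.00227), with replicate 1 the lowest.

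The bifunctional PFKFB enzymes make or remove fructose 2,6-bisphosphate, the strongest activator of phosphofructokinase 1. Pfkfb3, the form known to drive glycolysis in sprouting endothelium, had levels of 10.54, 10.27 and 10.02 (mean 10.28 ± 0.26, SD, n = 3), 2.34 over the background limit (adjusted p = 0.000148). All arrays were over the limit, and the highest exceeded the lowest 1.43-fold. Pfkfb2, the heart form, had 8.82, 8.74 and 8.74 (mean 8.76 ± 0.05, SD, n = 3) and was also above it (adjusted p = 0.000431). Pfkfb4, known from testis and from hypoxic tumour cells, had 6.86, 6.90 and 6.93 (mean 6.90 ± 0.03, SD, n = 3), which was above 100 units (adjusted p = 0.0156) and below the background limit (difference -1.04, adjusted p = 0.000195). Pfkfb1, the liver form, was not analysed here.

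Aldolase splits the hexose into a pair of triose phosphates, and triose phosphate isomerase converts one into the other. Aldoa, the muscle and general form, had levels of 11.77, 11.82 and 11.70 (mean 11.76 ± 0.06, SD, n = 3), 3.82 over the background limit (limma adjusted p = 2.81e-05). Aldoc, the brain form, had 8.12, 8.06 and 8.06 and was not told apart from the limit, with a difference of 0.14 (adjusted p = 0.0925), although each of its arrays lay over it. Tpi1, the isomerase, had 10.42, 9.96 and 9.54 (mean 9.98 ± 0.44, SD, n = 3; adjusted p = 0.000834). Its arrays were well apart from each other, with the highest 1.83-fold over the lowest.

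The payoff phase makes ATP and NADH from the trioses. Its first enzyme, Gapdh, was named only on 25 probe sets that name several genes, with means of 11.25 to 13.09, and was not among the 38. Pgk1, phosphoglycerate kinase, stood at 11.03 on all arrays and 3.09 over the background limit (adjusted p = 2.81e-05). Pgam1, the general phosphoglycerate mutase, had 9.33, 9.35 and 9.33 (adjusted p = 8.56e-05). Pgam2, the muscle mutase, had 7.87, 8.21 and 8.21 (mean 8.09 ± 0.19, SD, n = 3) and was not told apart from the limit (adjusted p = 0.213), while without replicate 1 it was above it (adjusted p = 0.0233). Bpgm, which diverts a triose to the 2,3-bisphosphoglycerate that tunes haemoglobin in red cells, had 8.31, 8.30 and 8.30 and was 0.36 above the limit (adjusted p = 0.00521). Of the 3 red cell markers measured, Alas2 averaged 8.15 ± 0.04 (SD, n = 3) and was above the limit, while Slc4a1 and Epb42 were not told apart from it. The summed level of the 3 was 739 to 755 units over the arrays, and its part in the level of Bpgm was not tested.

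Enolase makes phosphoenolpyruvate and pyruvate kinase turns it into pyruvate with the second ATP. Eno3, the muscle enolase, had levels of 8.35, 8.33 and 8.33 and was 0.39 above the background limit (adjusted p = 0.00403). Eno2, the neuronal enolase, stood at 7.29 on all arrays and was below it (difference -0.66, adjusted p = 0.000747). The general enolase, Eno1, was not analysed here, so the main form of this step has no value. Pkm, the muscle and general pyruvate kinase gene, had 11.24, 11.24 and 11.05 (mean 11.18 ± 0.11, SD, n = 3), 3.24 over the limit (adjusted p = 2.89e-05). Its splice forms M1 and M2 share the probe sets and were not separated. Pklr, the liver and red cell gene, stood at 7.79 on all arrays and was not told apart from the limit (adjusted p = 0.0725).

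Lactate dehydrogenase joins pyruvate and lactate, and its A subunit is known for favouring lactate and its B subunit for favouring pyruvate. Ldha had levels of 10.83, 10.94 and 10.89 (mean 10.89 ± 0.06, SD, n = 3), 2.95 over the background limit (limma adjusted p = 2.82e-05), and its arrays lay within 1.08-fold of each other. Ldhb had 9.99, 10.04 and 9.15 (mean 9.72 ± 0.50, SD, n = 3; adjusted p = 0.0019), with replicate 3 apart from the others and the highest array 1.85-fold over the lowest. The call for Ldhb rested on the probe set. Its other probe set had 8.16, 8.29 and 7.93 and was not told apart from the limit (difference 0.18, adjusted p = 0.139).

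Monocarboxylate transporters carry lactate and pyruvate with a proton. Slc16a3 (MCT4), known for lactate export from glycolytic cells, stood at 8.90 on all arrays, 0.96 over the background limit (adjusted p = 0.000234). Slc16a1 (MCT1), whose promoter is printed above, stood at 7.27 on all arrays and was below the limit (difference -0.67, adjusted p = 0.000682), though above 100 units. Slc16a7 (MCT2), known for a high affinity for pyruvate, had 7.80, 7.63 and 7.61 (mean 7.68 ± 0.10, SD, n = 3) and was below the limit (difference -0.26, adjusted p = 0.0284). This call was lost without replicate 2 (adjusted p = 0.0717) and without replicate 3 (adjusted p = 0.0708). Bsg, the chaperone that takes MCT1 and MCT4 to the membrane, was looked up after its values were seen and averaged 10.24 ± 0.01 (SD, n = 3), above the limit.

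Pyruvate dehydrogenase turns pyruvate into acetyl-CoA. All 4 of its listed genes were above the background limit. Pdha1, the E1 alpha subunit that the kinases phosphorylate, had levels of 9.70, 9.62 and 9.68 (mean 9.66 ± 0.04, SD, n = 3; adjusted p = 5.73e-05). Pdhb, the E1 beta subunit, had 9.62, 9.52 and 9.38 (mean 9.50 ± 0.12, SD, n = 3; adjusted p = 0.000125). Dlat, the E2 subunit at the core of the complex, stood at 9.06 on all arrays (adjusted p = 0.000149). Pdp1, the phosphatase that reactivates the complex, had 9.51, 9.79 and 9.63 (mean 9.64 ± 0.14, SD, n = 3; adjusted p = 0.000123).

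The 4 pyruvate dehydrogenase kinases, which shut the complex, had SDs of 0.13 to 0.57 over the arrays, against 0.00 to 0.14 for the 4 genes above. Pdk1, the form known as a target of hypoxia-inducible factor, had 9.08, 9.08 and 8.85 (mean 9.00 ± 0.13, SD, n = 3) and was 1.06 above the background limit (adjusted p = 0.000426). Pdk2, the widely expressed form, had 8.97, 8.24 and 8.42 (mean 8.54 ± 0.38, SD, n = 3) and was above the limit (adjusted p = 0.0281), but without replicate 3 the call was lost (adjusted p = 0.0826). Pdk3 had 8.17, 8.52 and 7.41 (mean 8.04 ± 0.57, SD, n = 3) and was not told apart from the limit (adjusted p = 0.724). It had the widest range of the 38 genes, with replicate 2 2.16-fold over replicate 3 and the arrays on both sides of the limit. Without replicate 2 its difference from the limit was -0.15, still not told apart. Pdk4, known to rise on fasting and fatty acids, had 7.60, 8.08 and 7.60 (mean 7.76 ± 0.28, SD, n = 3) and was not told apart from the limit (adjusted p = 0.246), while without replicate 2 it was below it (adjusted p = 0.0125).

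The gluconeogenic enzymes are known in the kidney from the proximal tubule. Fbp1, the liver and kidney fructose bisphosphatase, stood at 6.34 on all arrays, or 80.9 units, which was below 100 units (adjusted p = 0.00775) and below the background limit (difference -1.60, adjusted p = 6.1e-05). G6pc, the glucose 6-phosphatase that frees glucose, stood at 6.74 on all arrays, was not told apart from 100 units (adjusted p = 0.186) and was below the background limit (difference -1.20, adjusted p = 0.000124). Both of these enzymes take a phosphate off a sugar, against the direction of glycolysis. Fbp2, the muscle form, had 7.70, 7.69 and 8.07 (mean 7.82 ± 0.22, SD, n = 3) and was not told apart from the background limit (adjusted p = 0.337), while without replicate 3 it was below it (adjusted p = 0.0273).

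Phosphoenolpyruvate carboxykinase returns oxaloacetate to the route. Pck1, the cytosolic form, stood at 8.03 on all arrays and was not told apart from the limit (adjusted p = 0.223). Pck2, the mitochondrial form, stood at 8.36 on all arrays and was 0.42 above it (adjusted p = 0.00327), the only one of the 5 gluconeogenic genes to be so. The proximal tubule markers Slc34a1, Lrp2 and Miox stood at 8.40, 7.28 and 6.74 on all arrays. Slc34a1 was above the limit, and Lrp2 and Miox were below it. Of the 8 markers measured, 2 were above the limit, 5 below it and 1 not told apart from it. The 8 markers of that segment summed to 1409 to 1413 units over the arrays, and their part in the levels of the gluconeogenic genes was not tested.

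The hypoxia core was also counted by call. Of the 22 genes above the background limit that had a promoter in the reference, 19 held it in at least 1 of them. Of the 8 not told apart from the limit, 5 held it, and of the 6 below it, 3 did. Among all genes with a promoter, the core was held by 67.1% of the 7987 above the limit, 55.5% of the 1875 not told apart from it and 38.9% of the 5752 below it, so the shares differed between calls there too. Slc16a1, Hk2 and Pfkfb4 were below the limit and held the core, while Tpi1, Bpgm and Dlat were above it and held none.

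The array carries several single-gene probe sets for 5 of the 38 genes, and the one with the highest mean was used. The platform annotation does not place the probe sets here, so each was described by the chromosome that was most frequent among its 20 neighbours in probe set number, which was the chromosome of the gene for 96.8% of 21695 probe sets. The Hk1 probe set used, at 12.32, 12.61 and 12.37, had 19 of 20 neighbours on chromosome 14, while Hk1 lies on chromosome 10. The other Hk1 probe set, at 9.70 on all arrays, had all 20 neighbours on chromosome 10. The Ldhb probe set used had 17 of 20 neighbours on chromosome 19, while Ldhb lies on chromosome 6, and its lower probe set had 19 of 20 neighbours on chromosome 6.

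For the other genes the probe sets stood closer together. Pgk1, on chromosome X, had 2 probe sets at 11.03 on all arrays, with neighbours on chromosomes 12 and 3, and 1 at 10.97 on all arrays with all 20 neighbours on X. Pgam1, on chromosome 19, had the same values (9.33, 9.35 and 9.33) on probe sets with neighbours on chromosomes 19 and 7, and 8.85, 9.05 and 8.98 on a probe set with neighbours on chromosome 3. Pkm, on chromosome 9, had 11.24, 11.24 and 11.05 beside neighbours on chromosome 9, and 11.03, 10.92 and 11.02 beside neighbours on chromosome 5. Such genes are known to have near-identical copies, and which of them a probe set reads was not tested. Taking only probe sets with neighbours on the chromosome of the gene left 22 genes above the background limit and 7 below it, with Ldhb the gene that lost its call.

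**Figure D2:**
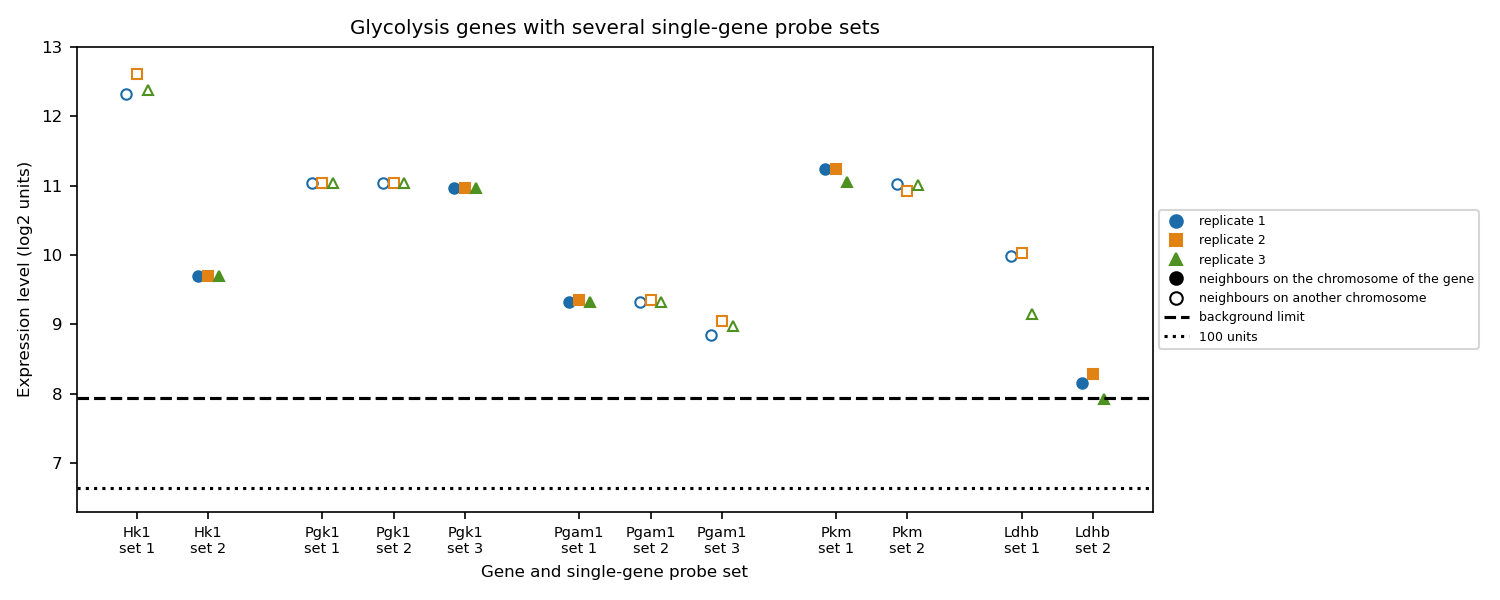
Expression level on the log2 scale (vertical axis) of each single-gene probe set of the 5 genes that have several, with a point for each array, filled where the neighbours of the probe set lie on the chromosome of the gene. Hk1 (means 12.43 and 9.70) and Ldhb (means 9.72 and 8.13) differ most between their probe sets, and only the lower Ldhb probe set comes down to the dashed background limit (7.94).

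The arrays were near in level for most of the genes. The median SD was 0.04 over the 38 genes and 0.01 over all genes, and 7 (18.4%) had an SD over 0.2, against 11.4% of all genes. These 7 were Pfkfb3, Tpi1, Ldhb, Pdk2, Pdk3, Pdk4 and Fbp2. Of the 25 glycolysis genes with unequal values, 15 (60%) were lowest on replicate 3, against 38.4% of 10708 such genes in all, and 3 (12%) were highest there, against 46.7%, with ties counted for both arrays. Pfkfb3, Tpi1, Pdhb and Slc16a7 were highest on replicate 1 and lowest on replicate 3. Pdk3, Ldhb, Pdk1 and Pkm were also lowest on replicate 3, and Fbp2 was highest there.

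The thick ascending limb is a tubule segment of the medulla, and its markers differed between the arrays too. Umod, its secreted protein uromodulin, had levels of 11.61, 10.40 and 9.49, and Slc12a1, its salt transporter, had 9.68, 8.07 and 7.81. Egf had 8.76, 8.16 and 8.16, Kcnj1 stood at 8.84 on all arrays, and Cldn16 went the other way, with 7.07, 7.34 and 7.34. The 5 markers of this segment summed to 4969, 2524 and 1852 units on replicates 1, 2 and 3, and Umod and Slc12a1 carried most of that difference. Replicate 1 was thus highest and replicate 3 lowest, as for Pfkfb3, Tpi1, Pdhb and Slc16a7. Ldhb and Pdk3 were instead highest on replicate 2. Among the 25 glycolysis genes with unequal values, 12 were highest on replicate 1 and 12 on replicate 2, with ties counted for both arrays. The sums were 41088, 36628 and 37472 units for the 7 endothelial markers, 1936, 1941 and 1743 for the 5 collecting duct markers, and 1173, 1230 and 1186 for the 7 leukocyte markers. Their part in the array differences of the glycolysis genes was not tested.

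**Figure D3:**
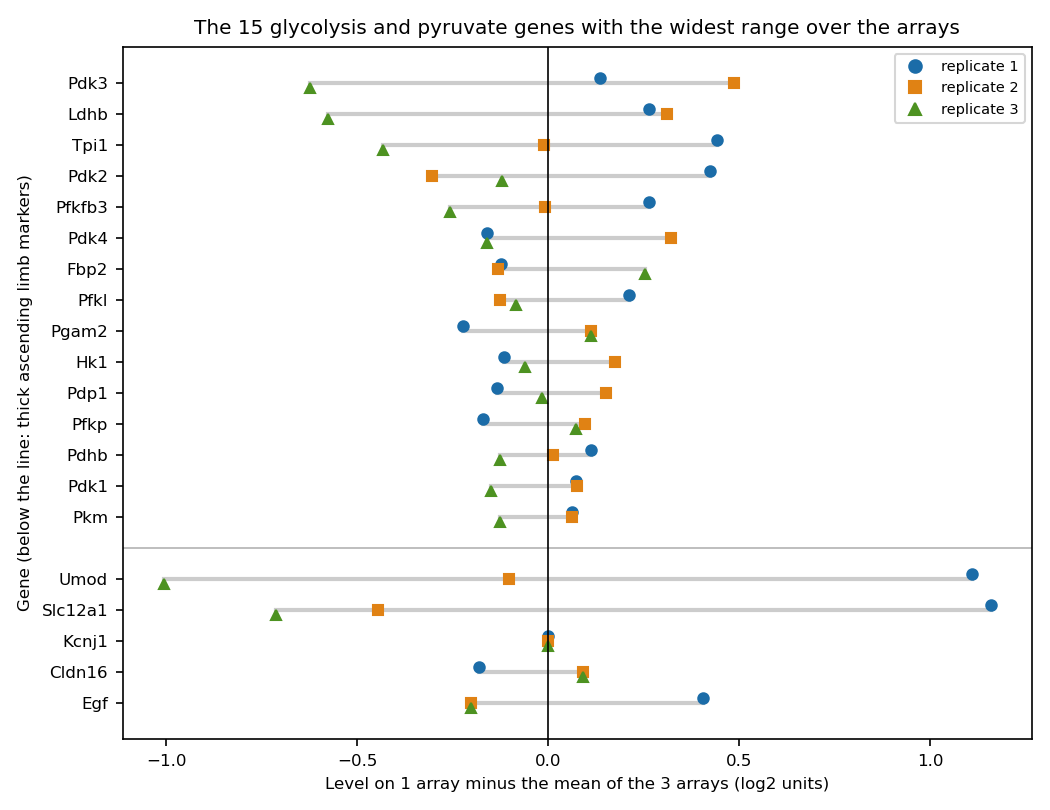
Level on each array minus the mean of the 3 arrays, in log2 units (horizontal axis), for the 15 glycolysis and pyruvate genes with the widest range and, under the line, the 5 thick ascending limb markers. Replicate 3 (triangles) is the lowest array for Pdk3, Ldhb, Tpi1 and Pfkfb3, and Umod and Slc12a1 are highest on replicate 1 and lowest on replicate 3.

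Neighbouring pathways were read against the same background limit. The citric acid cycle, which burns the acetyl-CoA made from pyruvate, had all 15 of its measured genes above it, against 49.8% of all genes. Its median level was 9.96. Cs, citrate synthase, stood at 10.75 on all arrays. Idh3a and Idh3b, subunits of isocitrate dehydrogenase, averaged 8.27 ± 0.10 and 10.67 ± 0.20 (SD, n = 3). Of 7 measured genes for pyruvate entry and the rest of the dehydrogenase complex, 4 were above the limit (57.1%, against 49.8% of all genes). Among them were the mitochondrial pyruvate carrier subunit Mpc1 (8.66, 8.61 and 8.41) and the complex component Pdhx (8.60, 8.46 and 8.46). Pdha2, the testis form of E1 alpha, stood at 5.83 on all arrays and was below the limit.

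The pentose phosphate pathway branches off at glucose 6-phosphate and makes NADPH. It had 6 of its 9 measured genes above the background limit (66.7%, against 49.8% of all genes). Pgd, its second dehydrogenase, averaged 9.61 ± 0.18 (SD, n = 3), and H6pd and Pgls averaged 8.12 and 8.75. The transketolase-like genes Tktl1 and Tktl2 averaged 6.62 and 6.18 and were below it. In glycogen metabolism 9 of 15 were above the limit (60%, against 49.8% of all genes), with the primer protein Gyg at 9.14, 9.14 and 9.37. Gys1, the muscle glycogen synthase, stood at 7.87 on all arrays and was not told apart from the limit. Gys2 and Pygl, the liver synthase and phosphorylase, at 6.57 and 6.58, Pygm, the muscle phosphorylase, at 7.62, and Phkg1, a muscle phosphorylase kinase subunit, at 6.38 were below it.

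A further list outside the 42 held 17 measured genes of glycolysis and of steps linked to it, such as glucose release, fructose use and lactate transport. Their median level was 8.11, with 8 above the background limit (47.1%) and 6 below it (35.3%). Those above it include Bsg, Slc16a8, G6pc3, Khk and Ldhd, so the share is not one of glycolytic enzymes alone. Of all genes, 49.8% were above the limit and 37.8% below it. Adpgk, an ADP-dependent glucokinase, averaged 8.76 ± 0.20 (SD, n = 3) and was above it. The genes below it were Hkdc1 (7.52), Eno4 (7.43), the testis forms Pgk2 (6.42) and Ldhc (7.58), the islet glucose 6-phosphatase G6pc2 (6.29) and Slc37a4 (7.43), which carries glucose 6-phosphate to that enzyme family. Gapdhs, the sperm form of glyceraldehyde 3-phosphate dehydrogenase, stood at 8.04 and was not told apart from it. G6pc3, the widely expressed glucose 6-phosphatase, was looked up after its values were seen, and had 10.33, 10.14 and 9.66.

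Of 10 transcription factors known for control of glycolytic genes, 8 were above the background limit (80%, against 49.8% of all genes). Hif1a, the oxygen-regulated factor, stood at 11.31 on all arrays. Epas1 (HIF-2 alpha), known as the endothelial member, had 12.39, 12.15 and 12.17, and their partner Arnt stood at 10.02 on all arrays. Myc, which raises glycolytic genes in growing cells, had 7.49, 6.88 and 6.88 and was below the limit. Transcript levels of the oxygen-regulated factors do not measure their protein, which is controlled by its breakdown.

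**Figure D4:**
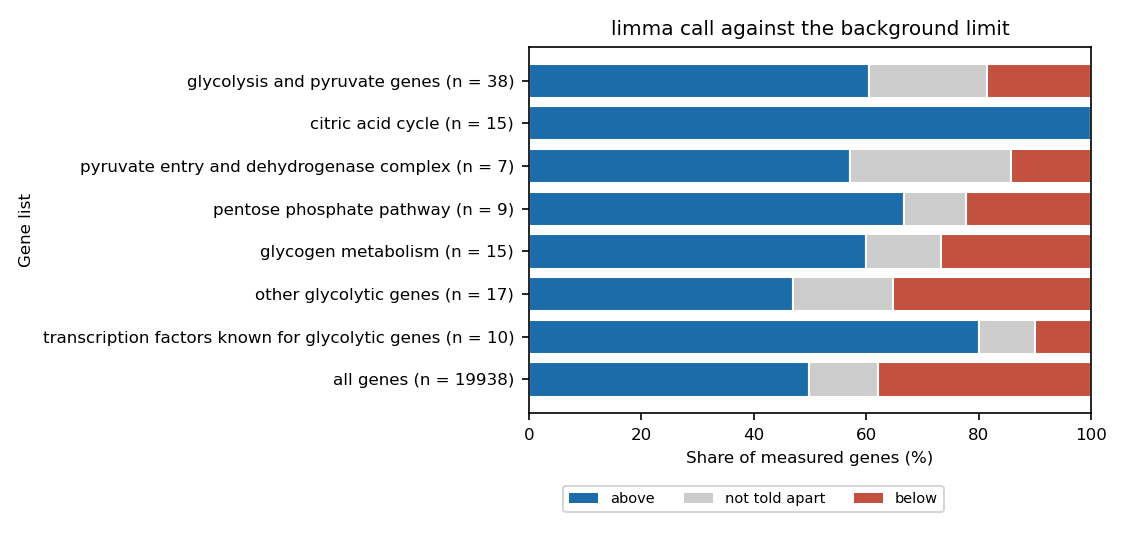
Share of measured genes (horizontal axis, percent) called by limma above, not told apart from or below the background limit, for the 38 glycolysis and pyruvate genes, 6 neighbouring lists and all 19938 genes. The glycolysis genes have 60.5% above and 18.4% below, the 15 citric acid cycle genes are all above, and of all genes 49.8% are above and 37.8% below.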

How the data were processed

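RNA of the 3 pools of sorted medullary endothelial cells was amplified in 1 round (NuGEN WT-Ovation Pico) and hybridised to 1-colour arrays by the authors. The authors deposited a log2 level for each probe set, made with Affymetrix Expression Console per the labels. The study text names RMA for its own analysis, and whether the deposited levels come from RMA is not stated. RMA corrects background, brings arrays to 1 distribution and summarises probes by median polish. That the scale is log2 follows from the range of 3.55 to 14.4, and the array medians were 8.00 to 8.03. Whether 100 deposited units equal 100 raw units in the filter of the study is not stated. Neither probe-level data nor scan dates entered, so detection per probe and batches were not examined.

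The platform annotation names 1 gene for 21789 of 35557 probe sets, several for 1621 and none for 12147. By Entrez identifier 21698 matched RefSeq symbols (GRCm38.p6). Each of 19938 genes was read from the brightest (highest mean) of its single-gene probe sets, a choice among several for 999 genes.

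The fit was limma (lmFit and squeezeVar, intercept only, two-sided) on the log2 level minus a limit. The moderated t and p-values were computed from these by the formula of eBayes. The eBayes function itself ran only in the alternative with the prior over all genes. The prior of the main fit (variance 0.0215, 1.91 degrees of freedom) came from the 4781 genes with 3 different values, and p-values were adjusted by Benjamini-Hochberg over all genes. The fit was tested on simulated data. Units are 2 to the power of the level. The members and lists were chosen with earlier results of these data known. Every listed gene with a single-gene probe set is named. Of other pathway lists the first 3 measured genes and those on the other side of the background limit from most of their list could be named, and of marker lists the first 3. The remaining thick ascending limb markers and the genes marked in the text were added after their values were seen. Promoters for the motif count came from RefSeq. Alternatives changed the limits, the probe set rule, the normalization, the prior and the filter on low levels, and left out each array in turn. Using only probe sets with neighbours on the chromosome of the gene was added after the values were seen. R 4.3.3 with limma 3.58.1 and Python 3.11.15 with numpy 2.4.6, pandas 2.3.3 and matplotlib 3.10.9 were used.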

Additional observations from a re-analysis of the deposited data

Results flagged for a closer look

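Signal for 2 of the listed genes appeared in probe sets that name several genes, which no comparison above used. Gapdh, glyceraldehyde 3-phosphate dehydrogenase, is named only in such probe sets. Their median level was 12.56 over 25 probe sets, with means of 11.25 to 13.09, and all 25 lay over the background limit on every array. The median SD over the arrays was 0.07, and all 25 were highest on replicate 2, with array medians of 12.53, 12.63 and 12.52. Some of these probe sets hold identical values and all name further genes, so they are not independent readings, and which gene they read was not tested.

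Hk1 was also named in 16 probe sets with several genes, whose median level was 12.32, with means of 11.80 to 12.83. All 16 lay over the background limit on every array and all 16 also name the ribosomal protein gene Rpl17. The single-gene Hk1 probe set used above averaged 12.43, and the Hk1 probe set with neighbours on chromosome 10 stood at 9.70.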

How the results depend on the processing

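Leaving out each array in turn left 36 genes above 100 units, 1 below it and 37 at or over it on every array. Against the background limit it gave 22 to 24 above, 7 below and 25 to 26 on every array. Counts below 100 units moved with the limit, with 0 genes below 50 units (against 4.18% of all genes) and 6 below 200 units (against 29.6%). With the 99th percentile of the receptor probe sets (8.73) as the background limit, 14 genes were above (against 29.2% of all genes) and 17 below (against 60.5%). At 200 units the difference from the limit turned negative for Hk2 (-0.33), Pfkfb4 (-0.75), Eno2 (-0.36), Slc16a1 (-0.38) and G6pc (-0.90), all called below, and at 50 units that of Fbp1 turned positive (0.69). At the 99th percentile it turned negative with a call below for Bpgm (-0.43), Eno3 (-0.40), Pck2 (-0.37), Aldoc (-0.65), Pgam2 (-0.63) and Pck1 (-0.70), and negative without a call for Pfkm (-0.13), Pfkp (-0.12), Pdk2 (-0.19) and Pdk3 (-0.69). At the 90th percentile it turned positive with a call for Hk3 (0.19) and Pklr (0.18), and without one for Pdk4 (0.15), Fbp2 (0.21) and Slc16a7 (0.072). These changes follow from the limit itself. Over all alternatives, 895 of 950 results for single genes kept their direction and their side of the threshold. Apart from the other limits, 745 of 760 did, and of the 15 others 1 turned its direction, Pdk3 without replicate 2 (-0.15, with a range of -0.15 to 0.41 over the arrays left out). With the prior taken over all genes, G6pc was above 100 units (adjusted p = 1.3e-08), Aldoc (adjusted p = 0.012) and Pck1 (adjusted p = 1.6e-08) were above and Hk3 (adjusted p = 6.19e-09) and Pklr (adjusted p = 5.12e-09) below the background limit, and the call for Pdk2 was lost (adjusted p = 0.0912). This prior includes the genes with 1 value on all arrays. With a limit from olfactory receptors alone, Hk3 (adjusted p = 0.0366) and Pklr (adjusted p = 0.0303) were below it. Median centring, quantile normalization, the mean of all probe sets of a gene and a filter at 50 units changed no count. No paired analysis was possible because there was 1 group. Signal over background per probe was not available from the values used, so genes near 7.94 are the least certain.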
